A study of Saccharomyces cerevisiae with 13 samples.

Results

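The genes described here are 38 listed heat shock protein and chaperone genes of the budding yeast *Saccharomyces cerevisiae*, taken by name from the 7126 rows counted in each plasmid library and the 7125 rows counted in each library without plasmid. All 38 names were found in every library. They were sorted by known function. There were 14 stress-inducible genes, 6 genes of the general cytosolic Hsp70 system and 8 genes of the Hsp90 system or of cyclophilins. The rest were 4 translation-linked genes, 5 mitochondrial genes and the regulator *HSF1*. The study asked how the oxidative stress regulator Yap1, a transcription factor of the AP-1 type, relates to caffeine resistance, and measured transcripts by QuantSeq, which counts reads near the 3′ end of polyadenylated RNA. All 13 libraries come from BY4741, a MATa haploid laboratory strain that is auxotrophic for histidine, leucine, lysine and uracil. Untreated WT and WT treated with caffeine for 1 h carried no plasmid (2 libraries each). One caffeine library is labelled 50 mM and the other 51 mM, while the treatment protocol gives 50 mM. The other 9 libraries, 3 per group, are WT with the empty vector pRS426ADH, the *yap1* mutant, a strain of the yeast knockout collection, with the same vector, and WT with pRS426ADH-YAP1, in which the ADH promoter of the plasmid drives *YAP1*. Their labels name no caffeine. The study's strain list gives a TAP tag on the overexpressed Yap1, which the labels do not name. The labels also do not say which libraries were grown in rich and which in minimal medium.

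Molecular chaperones bind unfolded or newly made proteins and help them to fold, to reach their compartment or to be taken out of aggregates. Hsp70 proteins cycle on and off their clients with the help of J proteins and nucleotide exchange factors, Hsp90 acts on a narrower set of clients with a group of cochaperones, and mitochondria have their own Hsp70, chaperonin and disaggregase. In yeast, transcription of many of these genes is driven by Hsf1, which binds inverted repeats of GAA called heat shock elements (HSE), and by Msn2 and Msn4, which bind the stress response element (STRE).

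Because many of the genes rose together with caffeine, the 500 bases before each start codon were searched in the R64 genome, the same assembly as the sacCer3 build of the counts. A strict HSE of 3 perfect units (the units TTC and GAA in alternation, starting with either, each followed by NN, any bases, before the next one, which covers both strands) was found before 13 of the 38 genes (34.2%). It was found before 89 of 6000 protein-coding genes (1.48%). The translation-linked genes had it in 0 of 4, the general Hsp70 system in 5 of 6, the mitochondrial genes in 3 of 5 and the stress-inducible genes in 3 of 14. A match describes letters only, and the absence of one says nothing of binding. The stretches below are shown because they carry the element before genes whose response to caffeine ran from strong rises (*BTN2*, *HSP104*, *HSP42*, *HSP78*) to none that passed the test (*AHA1*, *HSP60*). They are written 5′ to 3′ on the strand of the gene, from RefSeq R64, with the perfect units and the bases between them in capitals. They lie at chrVII:772090-772147 on the plus strand for *BTN2*, chrXII:88301-88358 on the plus strand for *HSP104*, chrIV:806358-806415 (plus) for *HSP42*, chrIV:974453-974510 (minus) for *HSP78*, chrXIV:619867-619929 (minus) for *SIS1*, chrXV:370972-371024 (minus) for *HSP10*, chrXII:665180-665232 (minus) for *HSP60* and chrIV:892554-892606 (plus) for *AHA1*.
BTN2: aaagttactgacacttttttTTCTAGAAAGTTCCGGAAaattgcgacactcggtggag
HSP104: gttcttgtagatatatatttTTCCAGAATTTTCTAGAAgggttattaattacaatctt
HSP42: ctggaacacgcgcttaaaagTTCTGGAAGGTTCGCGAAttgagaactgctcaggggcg
HSP78: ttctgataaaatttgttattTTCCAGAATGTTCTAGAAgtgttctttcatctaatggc
SIS1: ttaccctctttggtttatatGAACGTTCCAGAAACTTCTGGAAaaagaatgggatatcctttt
HSP10: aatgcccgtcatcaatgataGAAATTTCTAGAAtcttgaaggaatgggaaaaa
HSP60: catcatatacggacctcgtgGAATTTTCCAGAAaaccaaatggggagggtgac
AHA1: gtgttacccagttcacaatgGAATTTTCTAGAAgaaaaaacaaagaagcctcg

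Total counts ranged from 15508616 to 25609092 per library. The share of the 15 rRNA rows was highest in WT with vector, at 62% to 75%. It was 51% to 58% for *yap1* mutant libraries, 44% to 64% under Yap1 overexpression, and 14.7% to 27.4% without plasmid. Counts of *YAP1* followed the plasmid labels, which were 635 to 722 for WT with vector, 2 to 22 for the *yap1* mutant and 23285 to 25251 for overexpression. Genes specific to a cells, the mating type of the strain, summed to 10297 to 55832 counts per library, and those specific to alpha cells to 190 to 498. Replicate 2 of WT with vector stood apart: its log2 values deviated from the group mean with an SD of 0.54 over all genes, against 0.18 to 0.36 in the other plasmid libraries, and it had 495 counts of *SSC1* where the other 2 libraries had 1896 and 2482. Values without it are given beside some of the results that it changed. No source says that libraries of a group came from separate cultures, so p-values measure the spread between these libraries, which may be technical. Levels below are CPM, the counts per 1000000 counts of the library after TMM normalization, computed apart for the 4 libraries without plasmid and the 9 with plasmid, so that levels are not comparable between the 2 sets.

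With caffeine, the stress-inducible chaperones rose, the chaperones that sit on the ribosome fell, and 3 of the 5 mitochondrial chaperones were called higher. The 38 genes together took 2.01% and 1.94% of the counts outside the rRNA rows before treatment, and 6.09% and 9.48% after it. The 14 stress-inducible genes made most of this difference, with 0.132% and 0.196% untreated and 3.18% and 6.19% with caffeine. The translation-linked genes went from 0.594% and 0.509% to 0.160% and 0.0974%, and the mitochondrial genes from 0.154% and 0.141% to 0.655% and 0.838%. By edgeR, 37 of the 38 genes had enough counts to be tested. Of these, 28 had a Benjamini-Hochberg adjusted p under 0.05, 22 of them higher (59.5%) and 6 lower (16.2%). Over all 6759 genes tested, 45.8% were called, 22.2% higher and 23.6% lower. The median log2 fold change was 1.60 over the 37 chaperone genes and -0.00 over all genes tested. The groups did not overlap for 34 of the 37. For 26 of these the caffeine libraries were the higher ones, as for 37.4% of all genes, and for 8 the lower ones, as for 37.6% of all genes. In bulk cultures, fewer cells with a transcript and less of it per cell cannot be told apart, and all values are relative to the rest of the library.

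**Figure D1:**
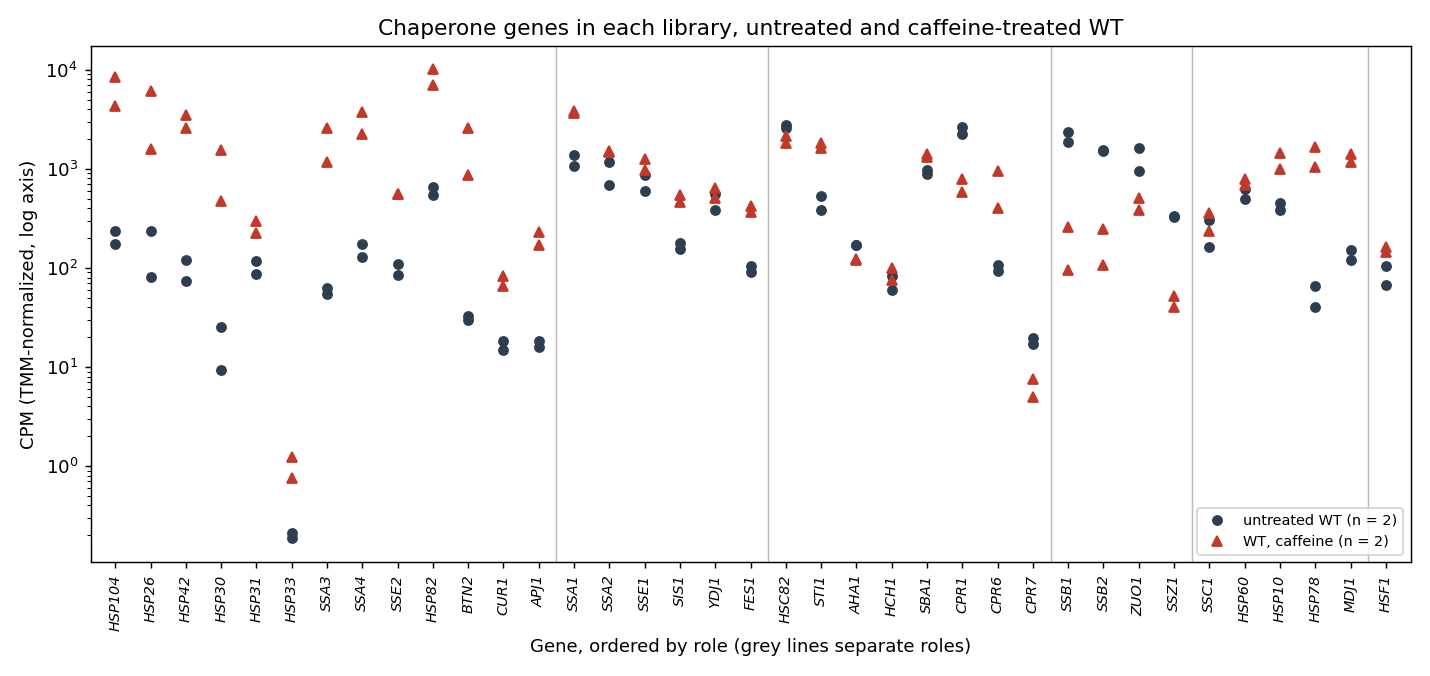
CPM (log axis) of the 37 chaperone genes tested in each untreated (circles, n = 2) and caffeine-treated (triangles, n = 2) WT library, ordered by role. The triangles lie above the circles in all 13 stress-inducible genes tested and below them in all 4 translation-linked genes (*SSB1* to *SSZ1*), and *SSC1*, *YDJ1* and *HCH1* overlap.

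All 13 stress-inducible genes that could be tested were higher with caffeine, with a median log2 fold change of 4.32 and a range from 1.36 to 5.87. *HSP104* encodes the cytosolic disaggregase, which pulls proteins out of aggregates. It had 175 and 236 CPM in the untreated libraries and 4292 and 8539.8 CPM with caffeine, a log2 fold change of 4.96 (SE 0.44, edgeR adjusted p = 0.000911). The small heat shock proteins Hsp42 and Hsp26 hold unfolded proteins in a state from which they can be refolded. *HSP42* went from 74.5 and 120.0 CPM to 2586 and 3525 CPM, a log2 fold change of 4.97 (SE 0.37, edgeR adjusted p = 0.000867). *HSP26* had 81.2 and 234 CPM untreated and 1581 and 6118 CPM with caffeine, a log2 fold change of 4.61 with a larger SE of 0.85 (edgeR adjusted p = 0.00738). In both genes the lower caffeine library was far above the higher untreated one, but the 2 caffeine libraries were much further apart for *HSP26* than for *HSP42*. Without untreated replicate 1, *HSP26* was at 4.10 and lost the call (edgeR adjusted p = 0.0542).

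The largest fold changes among the 38 were those of *HSP30* and *BTN2*. *HSP30* encodes a plasma membrane protein that restrains the proton pump Pma1. It had 9.22 and 25.5 CPM untreated and 475 and 1563 CPM with caffeine (log2 fold change 5.87, SE 0.83, edgeR adjusted p = 0.00298). *BTN2*, whose product gathers misfolded proteins into deposits, had 32.6 and 29.8 CPM untreated and 861 and 2611 CPM with caffeine (log2 fold change 5.80, SE 0.62, edgeR adjusted p = 0.00129). The 2 caffeine libraries again differed widely, and over the alternative settings the values ran from 4.78 to 6.87 for *HSP30* and from 4.79 to 6.38 for *BTN2*. *CUR1*, the paralog of *BTN2* with a related sorting role, rose less, by 2.15 (SE 0.24, edgeR adjusted p = 0.00129), from 14.9 and 18.4 CPM to 82.0 and 66.2 CPM.

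The inducible members of the Hsp70 and Hsp90 families rose as well. *SSA3*, an Hsp70 gene of stressed cells, had 54.6 and 62.1 CPM untreated and 1176 and 2603 CPM with caffeine (log2 fold change 5.02, SE 0.47, edgeR adjusted p = 0.000961). *SSA4*, its partner in that role, went from 128 and 173 CPM to 2248 and 3759 CPM (log2 fold change 4.32, SE 0.37, edgeR adjusted p = 0.000867). *HSP82*, the inducible Hsp90, had 540 and 657 CPM untreated and 7060.0 and 10084 CPM with caffeine (log2 fold change 3.84, SE 0.29, edgeR adjusted p = 0.000867). In all 3 genes both caffeine libraries were far above both untreated ones. *APJ1*, a J protein that works with Hsp70 on aggregates and SUMO-linked proteins, rose by 3.55 (SE 0.27, edgeR adjusted p = 0.000867). *SSE2*, an Hsp110 exchange factor, had 85.1 and 110 CPM untreated and 561 and 552 CPM with caffeine, a log2 fold change of 2.51 (SE 0.26, edgeR adjusted p = 0.00115).

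*HSP31* had the lowest log2 fold change of the 13 stress-inducible genes tested, and its relatives *HSP32* and *HSP33* had few counts. *HSP31*, a DJ-1 family glyoxalase that removes methylglyoxal, rose from 87.2 and 116 CPM to 225 and 296 CPM (log2 fold change 1.36, SE 0.28, edgeR adjusted p = 0.00991). The call was lost without untreated replicate 1 (1.21, edgeR adjusted p = 0.0573). *HSP32* and *HSP33* are copies of each other with 99.4% identical coding sequence, and every stretch of 75 bases, the read length, in the last 300 coding bases of each occurs elsewhere in the genome too, so their reads cannot be assigned to one of them. *HSP33* had 3 and 3 counts untreated and 14 and 23 with caffeine, a normalized ratio of 5.05 (95% counting interval 2.11 to 14.6). Its call in the main test (log2 fold change 2.29, SE 0.70, edgeR adjusted p = 0.0386) was lost with DESeq2 (adjusted p = 0.107), with limma voom (0.0529), when near-identical copies were summed (0.0512) and without any 1 of the 4 libraries. *HSP32* had 3 and 8 counts untreated and 6 and 32 with caffeine, too few for the main test, with a ratio of 2.83 (95% counting interval 1.42 to 6.13). Without these 2 genes, 12 of 12 stress-inducible genes were higher, with a median of 4.47.

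The constitutive cytosolic Hsp70 system changed less. *SSA1*, an Hsp70 present in unstressed cells, went from 1374 and 1061 CPM to 3687 and 3848 CPM (log2 fold change 1.63, SE 0.24, edgeR adjusted p = 0.00298). *SIS1*, a J protein that brings clients to Ssa proteins, rose by 1.60 (SE 0.25, edgeR adjusted p = 0.0037), and *FES1*, a nucleotide exchange factor for Hsp70, rose by 1.99 (SE 0.25, edgeR adjusted p = 0.00185). *SSA2*, the near-copy of *SSA1*, *SSE1*, the constitutive Hsp110, and *YDJ1*, the main cytosolic J protein, were not called, with log2 fold changes of 0.69 (SE 0.30), 0.60 (SE 0.29) and 0.29 (SE 0.29). *YDJ1* had 558 and 383 CPM untreated and 642 and 507 CPM with caffeine, so that its groups overlapped, while those of *SSA2* and *SSE1* did not. The median of the 6 genes was 1.14.

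The Hsp90 system and the cyclophilins were mixed. *CPR6*, a cyclophilin that binds Hsp90, had 93.7 and 107 CPM untreated and 407 and 941 CPM with caffeine (log2 fold change 2.75, SE 0.44, edgeR adjusted p = 0.00473). *STI1*, which bridges Hsp70 and Hsp90, rose from 532 and 381 CPM to 1634 and 1805 CPM (log2 fold change 1.91, SE 0.26, edgeR adjusted p = 0.00256). *CPR7*, another cyclophilin of Hsp90 and a paralog of *CPR6*, fell from 17.2 and 19.7 CPM to 4.99 and 7.65 CPM, a log2 fold change of -1.54 (SE 0.31, edgeR adjusted p = 0.0092), with the call lost without either untreated library (edgeR adjusted p = 0.0507 and 0.0683). The paralogs *CPR6* and *CPR7* were thus called in opposite directions. *CPR1*, the cytosolic cyclophilin bound by cyclosporin A, fell from 2256 and 2665 CPM to 781 and 585 CPM (log2 fold change -1.85, SE 0.26, edgeR adjusted p = 0.00257). The 4 genes not called were *HSC82*, the constitutive Hsp90 (-0.44, SE 0.22), the activators of its ATPase *AHA1* (-0.50, SE 0.21) and *HCH1* (0.30, SE 0.27), and *SBA1*, the yeast p23 protein (0.56, SE 0.22). The median of the 8 genes was -0.07.

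All 4 translation-linked genes fell. Ssb1 and Ssb2 are Hsp70 proteins bound to ribosomes, where the complex of the J protein Zuo1 and the Hsp70-like Ssz1 stimulates them on newly made chains. *SSB1* had 2368 and 1853 CPM untreated and 260 and 94.2 CPM with caffeine, a log2 fold change of -3.57 (SE 0.53, edgeR adjusted p = 0.0035). *SSB2* had 1504 and 1550 CPM untreated and 246 and 107 CPM with caffeine (-3.11, SE 0.44, edgeR adjusted p = 0.00296). *SSZ1* fell from 335 and 324 CPM to 52.2 and 40.3 CPM (-2.83, SE 0.26, edgeR adjusted p = 0.000911). *ZUO1* fell least, from 1631 and 960 CPM to 511 and 387 CPM (-1.53, SE 0.33, edgeR adjusted p = 0.0129), and lost the call without untreated replicate 1 (-1.06, edgeR adjusted p = 0.0565) or caffeine replicate 2 (-1.34, edgeR adjusted p = 0.0583). The median of the 4 genes was -2.97. In the same libraries, 131 of 137 rows of cytosolic ribosomal protein genes were lower and 0 were higher, with a median of -2.65.

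*SSB1* and *SSB2* have 97.5% identical coding sequence, and 36.3% of their stretches of 75 bases occur in more than 1 place, but 0% of those in their last 300 coding bases. Their last 90 coding bases are shown because 3′ reads come from this end and only 3 bases, in capitals, tell the copies apart there. They lie at chrIV:45817-45906 and chrXIV:253811-253900, both on the plus strand in RefSeq R64, and are written 5′ to 3′.
SSB1: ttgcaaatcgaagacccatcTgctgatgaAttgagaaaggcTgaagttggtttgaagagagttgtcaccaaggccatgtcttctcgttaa
SSB2: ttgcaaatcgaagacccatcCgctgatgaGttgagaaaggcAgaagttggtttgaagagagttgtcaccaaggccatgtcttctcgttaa

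The authors counted reads with unique and multiple alignments, so a read that matches both copies may count on both. The fall does not depend on the assignment, since *SSB1* and *SSB2* summed gave -3.36 (edgeR adjusted p = 0.00301).

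All 5 mitochondrial chaperones had positive log2 fold changes (median 1.55), and 3 of them were called. *HSP78*, the matrix disaggregase related to Hsp104, went from 40.2 and 65 CPM to 1042 and 1644 CPM, a log2 fold change of 4.67 (SE 0.41, edgeR adjusted p = 0.000891). *MDJ1*, the J protein of the matrix Hsp70, rose from 150.1 and 119.9 CPM to 1183 and 1401 CPM (3.26, SE 0.27, edgeR adjusted p = 0.000867). *HSP10*, the lid of the mitochondrial chaperonin, had 382 and 455 CPM untreated and 1001 and 1446 CPM with caffeine (1.55, SE 0.28, edgeR adjusted p = 0.00647), and missed the threshold without untreated replicate 1 (1.48, edgeR adjusted p = 0.055). The barrel and the matrix Hsp70 themselves were not called. *HSP60*, the chaperonin barrel, had 631 and 495 CPM untreated and 797 and 689 CPM with caffeine (0.40, SE 0.25, edgeR adjusted p = 0.234). *SSC1*, the matrix Hsp70, had 307 and 162 CPM untreated and 361 and 235 CPM with caffeine (0.35, SE 0.39, edgeR adjusted p = 0.505). The groups overlapped for *SSC1* but not for *HSP60*. *HSF1*, the regulator, had 103 and 67.8 CPM untreated and 163 and 146 CPM with caffeine (0.85, SE 0.27, edgeR adjusted p = 0.0456), and lost the call without untreated replicate 2 or either caffeine library (edgeR adjusted p from 0.103 to 0.145).

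**Figure D2:**
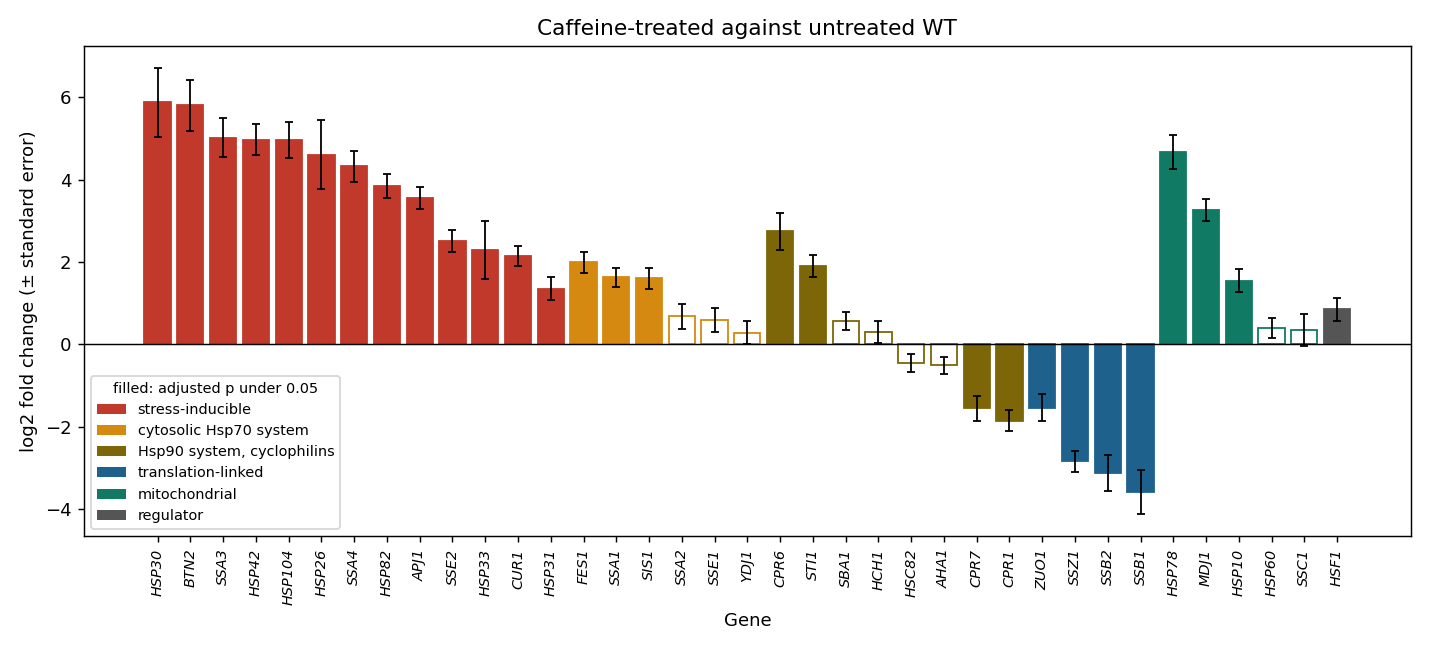
Log2 fold change of the 37 tested chaperone genes in caffeine-treated against untreated WT, with the standard error of the edgeR fit (2 libraries per group), coloured by role. Filled bars have an adjusted p under 0.05: all 13 stress-inducible genes tested are above 0, from 1.36 to 5.87, and all 4 translation-linked genes are below, from -3.57 to -1.53.

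Chaperone genes outside the 38 showed another pattern. Of 43 tested genes of the TRiC and prefoldin complexes, the nascent polypeptide-associated complex, and other cochaperones, J proteins and mitochondrial factors, 6 were higher and 19 lower, with a median log2 fold change of -0.63. The cytosolic chaperonin TRiC, which folds actin and tubulin, had 6 of 8 subunit genes lower and 0 higher (median -1.02), and prefoldin, which delivers clients to it, had 4 of 5 lower and 0 higher (median -0.99). The mitochondrial chaperones and proteases outside the list had 2 higher and 2 lower of 13, with a median of -0.05. The 4 largest changes called in these lists were those of *PPT1*, a phosphatase that acts on Hsp90 (-2.95), *JJJ1* (-2.29) and *JJJ3* (-2.07), both J proteins, and *BTT1*, a subunit of the nascent polypeptide-associated complex (1.96). The other 2 genes of that complex were lower.

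Within pairs of related genes, the division of the counts shifted with caffeine, and in the Hsp90 and Hsp110 pairs the inducible copy took a larger share. *HSP82* gave 16.3% and 20.2% of the summed counts of *HSC82* and *HSP82* in the untreated libraries and 79.6% and 82.5% with caffeine, so that most Hsp90 counts fell on *HSC82* before and on *HSP82* after treatment. *HSC82* itself had 2767 and 2591 CPM untreated and 1811 and 2141 CPM with caffeine. The 2 coding sequences are 91.7% identical, and no stretch of 75 bases in their last 300 coding bases is repeated. Their last 90 coding bases, shown because the shift rests on telling them apart, differ at the 10 positions in capitals. They lie at chrXIII:634383-634472 on the plus strand and chrXVI:96496-96585 on the minus strand in RefSeq R64.
HSC82: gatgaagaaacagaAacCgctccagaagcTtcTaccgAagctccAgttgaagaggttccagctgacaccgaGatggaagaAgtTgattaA
HSP82: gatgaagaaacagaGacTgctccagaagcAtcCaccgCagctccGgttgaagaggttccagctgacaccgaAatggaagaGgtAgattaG

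Summed, *HSC82* and *HSP82* had a log2 fold change of 1.69 (edgeR adjusted p = 0.00295), against 3.84 for *HSP82* alone. *SSE2* gave 8.93% to 15.7% of the counts of *SSE1* and *SSE2* untreated and 30.7% to 36.8% with caffeine. *SSA2* gave 39.3% to 45.9% of the counts of *SSA1* and *SSA2* untreated and 27.8% to 28.9% with caffeine. *SSA4* gave 70.0% to 73.6% of the counts of *SSA3* and *SSA4* untreated and 59.1% to 65.7% with caffeine, and *SSB2* 38.8% to 45.6% of those of *SSB1* and *SSB2* untreated and 48.6% to 53.3% with caffeine. The groups did not overlap in any of the 5 pairs. In CPM, the caffeine libraries also lay wholly above the untreated ones for 37.4% of all genes tested and wholly below for 37.6%. The lack of overlap alone therefore says little of the pairs. Groups of 2 libraries cannot give a two-sided exact permutation p below 0.333, which is the value for each of these pairs.

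**Figure D3:**
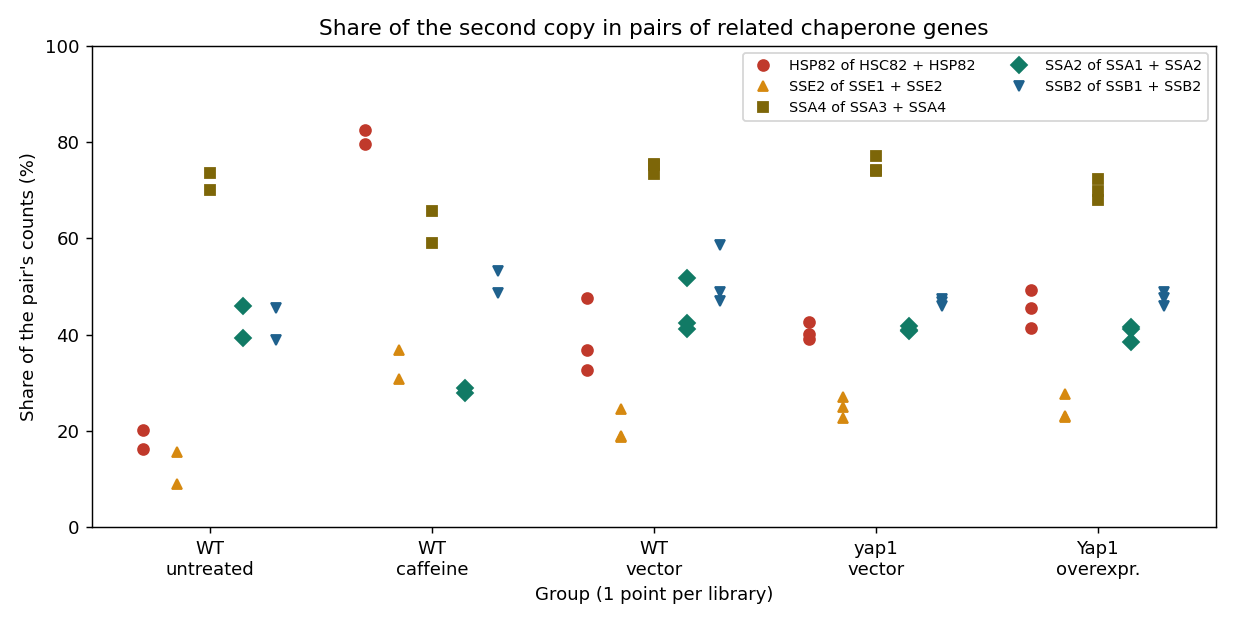
Share of the pair's counts (%) that fell on the second gene of 5 pairs of related chaperone genes, 1 point per library, in the 5 groups. *HSP82* has 16.3% to 20.2% of the Hsp90 counts in untreated WT, 79.6% to 82.5% with caffeine and 32.7% to 49.2% in the plasmid groups.

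The promoter letters did not sort the genes by their response to caffeine into clean groups. Of the 13 genes with the 3-unit HSE, 9 were higher and 4 (*SSA2*, *SSE1*, *AHA1* and *HSP60*) were not called, and 0 were lower. Of the 24 tested genes without it, 13 were higher, 6 were lower and 5 were not called. *HSP10* and *HSP60*, printed above, each had 1 such element, within 148 to 160 and 198 to 210 bases of the start codon, while only *HSP10* was called. The STRE (AGGGG, or CCCCT on the opposite strand) occurred before 16 of the 38 genes (42.1%) and before 34.1% of the 6000 protein-coding genes. It was found before 10 of the 14 stress-inducible genes and 0 of the 4 translation-linked genes. *HSP104*, *HSP42*, *SSA1* and *HSP78* had both elements, and all 4 were higher, with a median log2 fold change of 4.82. The 9 genes with the HSE alone had a median of 1.55. The 11 tested genes with the STRE alone had a median of 2.51, and the 13 with neither had a median of 0.29. *HSP30* and *SSA3*, among the genes that rose most, had neither, so these letters are not shared by all of the strongly raised genes. A looser HSE of 2 units (TTCNNGAA or GAANNTTC), which the 3-unit form contains, occurred before 28 of the 38 genes and before 35.2% of all genes.

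In the *yap1* mutant, few chaperone genes differed from WT with vector beyond the spread between libraries. The edgeR fit called 1 of the 38 genes higher (*HSP10*) and 0 lower, where 0.0737% of the 6781 genes tested were called (0.059% higher and 0.0147% lower). At an unadjusted p under 0.05 were 7 of the 38 genes and 10.2% of all genes. *HSP10* had 3649, 4162 and 4915 counts in WT with vector and 10138, 11487 and 10022 in the mutant. In CPM these were 220 ± 32.7 and 469 ± 39.3 (SD, n = 3), and the groups did not overlap. The log2 fold change was 1.09 (SE 0.16, edgeR adjusted p = 0.0456). The call was lost in the fit of all 13 libraries (edgeR adjusted p = 0.0517), in the fit of the 6 libraries compared (0.266) and without any 1 library except replicate 2 of WT with vector (0.0701 to 0.297). Without that replicate, the log2 fold change was 0.99 (edgeR adjusted p = 0.000974).

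The other mitochondrial chaperones lay on the same side. *HSP60* had 360, 236 and 345 CPM in WT with vector and 486, 579 and 554 CPM in the mutant, so both parts of the chaperonin were above WT with vector in every library. Its log2 fold change of 0.78 (SE 0.18) did not pass the edgeR test (adjusted p = 0.145). It passed with DESeq2 (adjusted p = 0.00586), with limma voom (0.0424) and, by edgeR, without replicate 2 of WT with vector (0.63, adjusted p = 0.0209). *SSC1* had 128, 21.8 and 116 CPM in WT with vector and 241, 178 and 154 CPM in the mutant (1.11, SE 0.55, edgeR adjusted p = 0.54), with the low value in the replicate that stands apart. Without that replicate, *SSC1* was at 0.66 (SE 0.18, edgeR adjusted p = 0.0708). *HSP78* (0.56, SE 0.21, edgeR adjusted p = 0.378) and *MDJ1* (0.21, SE 0.17) overlapped between the groups. The 5 mitochondrial genes had a median of 0.78 and took 0.206%, 0.176% and 0.206% of the counts outside the rRNA rows in WT with vector and 0.330%, 0.329% and 0.348% in the mutant. All genes tested had a median of -0.00. The other 13 mitochondrial chaperone and protease genes had a median of 0.20 with 0 called, against 1 called of the 5. Of these 13 genes, 10 were above 0, and 4 did not overlap between the groups, all of them higher in the mutant. At an unadjusted edgeR p under 0.05 were 5 of the 13, against 10.2% of all genes.

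Among the other roles, none of the genes was called. The median was 0.16 over the 14 stress-inducible genes, -0.03 over the general Hsp70 system and -0.07 over the Hsp90 system with the cyclophilins. It was 0.01 over the 4 translation-linked genes, whose values lay between -0.06 and 0.24. *HSP31* was lowest, with 128, 160 and 137 CPM in WT with vector and 71.9, 94.3 and 86.3 CPM in the mutant, groups that did not overlap. Its log2 fold change of -0.75 (SE 0.15, edgeR adjusted p = 0.112) passed with DESeq2 (adjusted p = 0.00104), with limma voom (0.0424) and, by edgeR, without replicate 2 of WT with vector (-0.65, adjusted p = 0.0172). *HSP30* had the highest value, 1.57 (SE 0.58, edgeR adjusted p = 0.413), from 55.2, 11.1 and 75.7 CPM to 126, 180 and 115 CPM. Without replicate 2, it was 1.11 (edgeR adjusted p = 0.00615). *AHA1* had a log2 fold change of -0.38 (SE 0.15, edgeR adjusted p = 0.415). Without replicate 2 of WT with vector, 4 of the 38 genes were called (*HSP30*, *HSP60* and *HSP10* higher, *HSP31* lower), against 1.47% of all genes. In all, 7 of the 38 genes did not overlap between the groups (18.4%), against 15.4% of all genes tested.

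**Figure D4:**
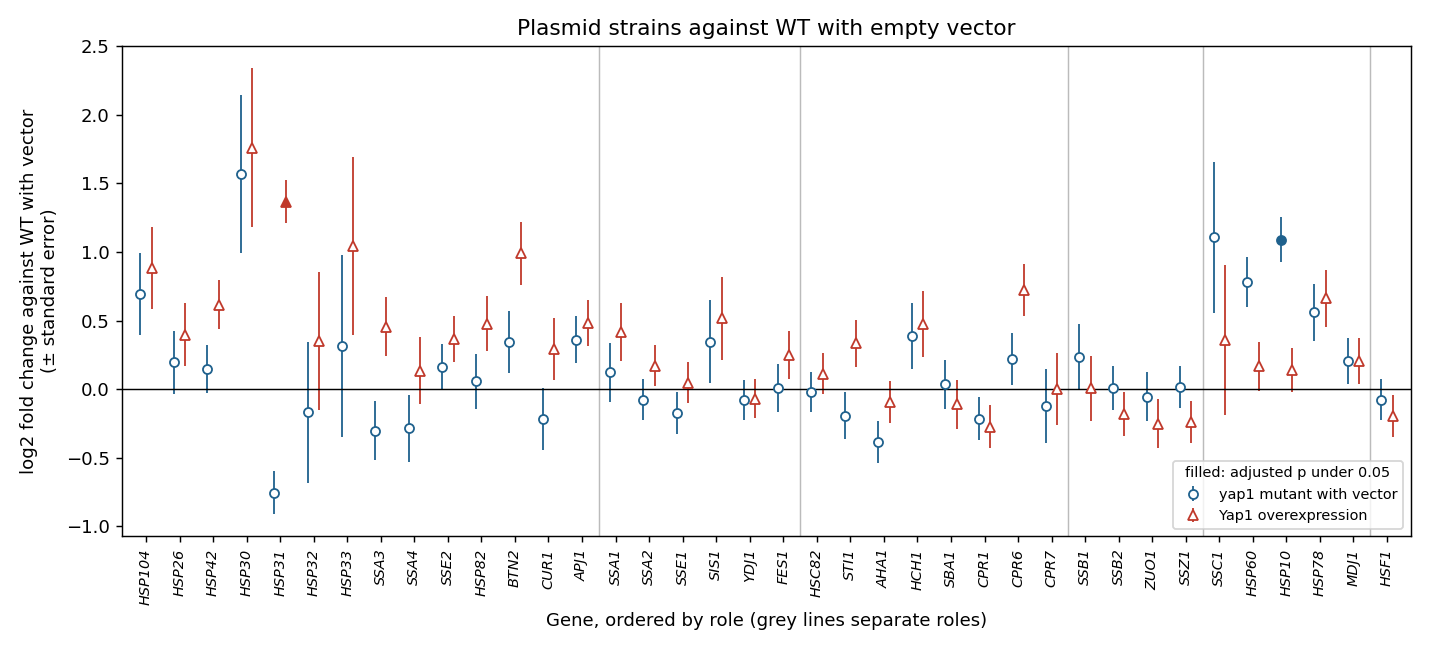
Log2 fold change of the 38 chaperone genes against WT with vector in the *yap1* mutant (circles) and with Yap1 overexpression (triangles), with standard errors from 1 edgeR fit of 9 libraries, ordered by role. *HSP10* in the mutant (1.09) and *HSP31* with overexpression (1.37) are the filled points with an adjusted p under 0.05, and both series share the 3 libraries of WT with vector.

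With Yap1 overexpression, *HSP31* was the 1 gene of the 38 called, higher than in WT with vector. Over all genes, 0.472% were called (0.442% higher and 0.0295% lower). At an unadjusted p under 0.05 were 9 of the 38 genes and 9.42% of all genes. *HSP31* had 128, 160 and 137 CPM in WT with vector and 376, 357 and 364 CPM with overexpression, which is 142 ± 16.1 and 366 ± 9.61 CPM (SD, n = 3). The log2 fold change was 1.37 (SE 0.16, edgeR adjusted p = 0.00123), and it was called under all 17 alternatives, with values from 1.33 to 1.79. The Yap1 response element (TTACTAA or TGACTAA, with TTAGTAA and TTAGTCA on the opposite strand) was searched after these values were seen. *HSP31* had 1 match, 354 to 360 bases before the start codon, in the stretch below at chrIV:1502494-1502540 on the minus strand of RefSeq R64, with the match in capitals. Such a match occurred before 5 of the 38 genes (*HSP30*, *HSP31*, *SSE2*, *ZUO1* and *HSP10*) and before 17% of the 6000 protein-coding genes, and 3 of the 14 stress-inducible genes had one. The match before *HSP10*, at chrXV:370924-370970 on the minus strand, is shown for comparison.
HSP31: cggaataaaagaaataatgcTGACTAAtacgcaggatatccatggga
HSP10: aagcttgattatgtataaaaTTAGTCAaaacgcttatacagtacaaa

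The remaining stress-inducible genes lay above 0 without passing the test. All 14 had positive log2 fold changes, with a median of 0.48, where 3381 of 6781 genes tested were positive and the median was -0.00. Without *HSP32* and *HSP33*, which had few counts, 12 of 12 were positive. The sign was not particular to this role, since 30 of the 38 genes were positive. Positive were 5 of 6 general Hsp70 genes (median 0.21), all 5 mitochondrial genes (0.20) and 5 of 8 of the Hsp90 system with the cyclophilins (0.06). Of the translation-linked genes, 1 of 4 was positive (-0.21). *HSP30* had the highest value of the 38 genes, with 55.2, 11.1 and 75.7 CPM in WT with vector and 154, 182 and 145 CPM with overexpression (1.76, SE 0.58, edgeR adjusted p = 0.399). Its groups did not overlap, and the lowest value was again that of replicate 2. The smallest p after *HSP31* was that of *BTN2*, with 36.7, 63.4 and 54.2 CPM in WT with vector and 95.6, 133 and 78.6 CPM with overexpression (0.99, SE 0.23, edgeR adjusted p = 0.158). *BTN2* passed with DESeq2 (adjusted p = 0.0157), with limma voom (0.0477) and, by edgeR, without replicate 2 of WT with vector (1.19, adjusted p = 0.00841). *HSP42* (0.62, SE 0.18, edgeR adjusted p = 0.32) and *HSP104* (0.89, SE 0.30, edgeR adjusted p = 0.397) did not overlap between the groups. *HSP104* had 174.7, 104.0 and 236.6 CPM in WT with vector and 236.8, 379.1 and 335.7 CPM with overexpression, so that the 2 groups were barely apart. It was at 0.65 (edgeR adjusted p = 0.224) without replicate 2 of WT with vector. The groups also did not overlap for the mitochondrial *HSP78* (0.66, SE 0.21, edgeR adjusted p = 0.392) and for *CPR6* (0.72, SE 0.19, edgeR adjusted p = 0.269). *HSP10* had 243, 261 and 223 CPM with overexpression (0.14, SE 0.16), overlapping WT with vector. *SSC1* was at 0.36 with all libraries and at -0.08 (SE 0.17) without replicate 2 of WT with vector. Without replicate 2 of WT with vector, 5 of the 38 genes were called higher, all of them stress-inducible, against 1.64% of all genes called. These were *HSP31* (1.48), *HSP30* (1.32, edgeR adjusted p = 0.000656), *BTN2* (1.19), *SSA3* (0.73, edgeR adjusted p = 0.0268) and *HSP82* (0.73, edgeR adjusted p = 0.00836). With all libraries, *SSA3* was at 0.46 and *HSP82* at 0.48, and neither was called. In all, 13 of the 38 genes did not overlap (34.2%), against 15.2% of all genes tested. Scaling by library size alone, which counts the rRNA rows, moved the median of all genes to 0.45 here and to 0.36 in the *yap1* mutant, so these directions are relative to the other genes.

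**Figure D5:**
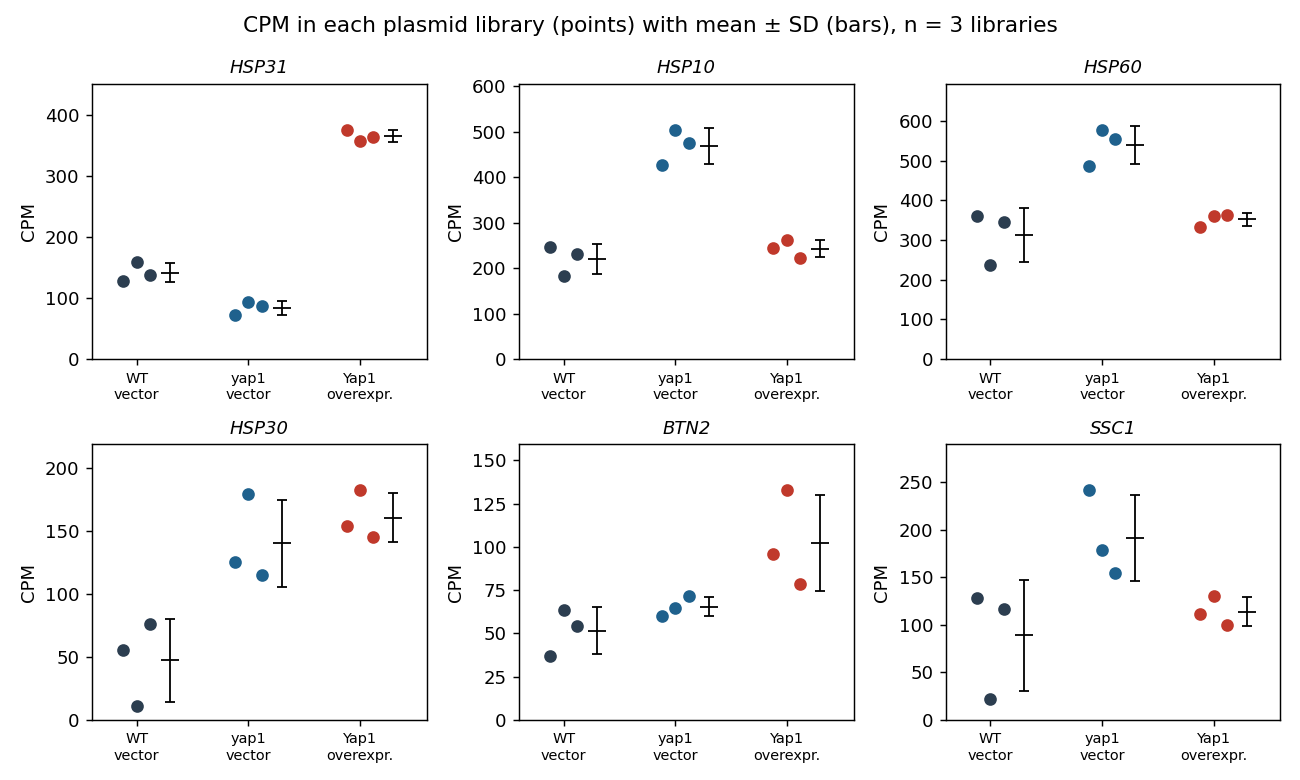
CPM of 6 chaperone genes in each of the 9 plasmid libraries (points) with mean and SD (bars, n = 3 per group). *HSP31* is highest with Yap1 overexpression (357 to 376 CPM), *HSP10* and *HSP60* are highest in the *yap1* mutant, and 1 library of WT with vector is low for *SSC1* (21.8 CPM) and *HSP30* (11.1 CPM).

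Both comparisons above use the same 3 libraries of WT with vector, so the *yap1* mutant was also set directly against Yap1 overexpression. This called 2 of the 38 genes, 1 higher and 1 lower, where 0.973% of all genes tested were called (0.31% higher and 0.664% lower). The groups did not overlap for 17 of the 38 (44.7%), against 18.8% of all genes. *HSP31* was lower in the mutant, by a log2 fold change of -2.12 (SE 0.16, edgeR adjusted p = 2.57e-05), with 71.9 to 94.3 CPM against 357 to 376 CPM, and was called under all 17 alternatives. *HSP10* was higher in the mutant (0.95, SE 0.16, edgeR adjusted p = 0.0183), with 427, 504 and 475 CPM against 243, 261 and 223 CPM. That call was lost without any 1 of the 6 libraries (edgeR adjusted p from 0.0535 to 0.138) and with scaling by library size (0.667). In a fit of only these 6 libraries, without WT with vector, it held (0.93, edgeR adjusted p = 0.00013). That fit called 3 of the 38 genes higher and 6 lower, where it called 4.89% of 6714 genes (1.88% higher and 3.01% lower). *HSP60* was among those higher (0.60, edgeR adjusted p = 0.00663), and *SSA3* (-0.78, 0.00465), *STI1* (-0.55, 0.0179) and *BTN2* (-0.67, 0.0377) were among those lower. In the fit of 9 libraries these 4 genes were at 0.62, -0.76, -0.53 and -0.64 and were not called (edgeR adjusted p from 0.17 to 0.34). All 14 stress-inducible genes were below 0 (median -0.45), as were 3172 of the 6781 genes tested. So were all 6 genes of the general Hsp70 system (median -0.23) and 6 of the 8 of the Hsp90 system with the cyclophilins (median -0.13). Of the 5 mitochondrial genes, 1 was below 0. All 4 translation-linked genes were above 0 (median 0.21, from 0.19 to 0.26), with 0 called. Above 0 were also 3609 of the 6781 genes, 135 of 137 cytosolic ribosomal protein genes (median 0.17) and 37 of the 43 other chaperone genes tested. The positive sign was thus not particular to the translation-linked genes.  *HSP31*, the 1 gene of the 38 called with Yap1 overexpression, and *HSP10*, the 1 called in the *yap1* mutant, were both called with caffeine too. Caffeine called 28 of the 37 genes tested (75.7%), so these shared calls say little. *HSP10* was called in the mutant under only 9 of the 17 alternatives.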

How the data were processed

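The deposited values are read counts per gene, 1 list per library. The authors aligned QuantSeq reads of 75 bases with Bowtie2 and counted unique and multiple alignments with bedtools. The submitters' processing notes name the build sacCer3, without versions. The 38 genes and the gene lists were chosen with earlier results of these data known. Counts were joined by gene name over 2 naming versions, with 169 renamed rows, 69 of them joined by position only and 0 of them among the 38 genes. Blank rows held 0% of the counts. A further deposited table of mouse genes was not used.

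Genes were filtered (filterByExpr), normalized (TMM) and tested with the robust quasi-likelihood test of edgeR 4.0.16 in R 4.3.3, with Benjamini-Hochberg adjustment over all genes tested at 0.05. The 9 plasmid libraries shared 1 fit, and the 4 without plasmid another. The standard error (SE) was taken as the absolute log2 fold change over √F. The biological coefficient of variation was 25.1% without plasmid and 25.8% with plasmid. Intervals on counts cover counting error only. Genes were named with full statistics where called, or among the 6 smallest p of a comparison, and others given with values were chosen after these were seen. The alternatives were DESeq2 1.42.0, voom with quality weights of limma 3.58.1, other scalings and filters, near-identical copies summed, other sets of libraries, a replicate block, and each library left out. Sequences, promoter windows and repeats were read from RefSeq R64, to which all 38 genes matched.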

Additional observations from a re-analysis of the deposited data

How the results depend on the processing

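With caffeine, the counts of the 38 genes called stayed within 1.5 times under all alternatives run, and no named gene changed direction. Over all genes, leaving out 1 library gave 1999 to 2454 calls in place of 3094. Scaling by library size moved the median of all genes by 0.37 and the calls to 66.8% higher, against 48.5%.

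In the *yap1* mutant, the genes of the 38 called higher numbered 2 with DESeq2, 5 with scaling by library size, 2 with limma voom, 0 in the fit of 13 libraries, 0 in that of 6, and 0 to 3 with 1 library left out. Those called lower numbered 1 with DESeq2, 1 with voom and 0 to 1 with 1 library left out. Over all genes the calls numbered 121 with DESeq2, 287 with library size (99.3% higher, against 80.0%), 32 with voom, 0 in the fit of 6 libraries and 1 to 100 with 1 library left out. With Yap1 overexpression, the genes of the 38 called higher numbered 3 with DESeq2, 6 with library size, 2 with voom and 1 to 5 with 1 library left out. All genes called numbered 92 with DESeq2, 267 with library size, 54 with voom, 21 in the fit of 6 libraries and 21 to 112 with 1 left out. Replicate 2 of WT with vector gave the highest of these numbers when left out.

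For the mutant against overexpression, the genes of the 38 called higher numbered 2 with DESeq2, 0 with library size, 2 with voom, 3 in the fit of 6 libraries and 0 with any 1 library left out. Those called lower numbered 4 with voom and 6 in the fit of 6 libraries. All genes called numbered 190 with DESeq2, 40 with library size (7.5% higher, against 31.8%), 301 with voom, 328 in the fit of 6 libraries and 27 to 33 with 1 left out. The cause of these shifts was not tested.

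Same-numbered libraries did not deviate together in all pairs of the plasmid groups (Pearson's r from -0.37 to 0.22), so the numbers were not taken as pairing. In the caffeine set, the 2 libraries of a group mirror each other around its mean. Its pairs therefore give only 1 value (r = 0.41), which cannot decide on pairing. The numbers were not taken as pairing there either. With the replicate number as a block, 23 of the 37 genes were called higher and 6 lower with caffeine (3869 genes in all), 0 of the 38 in the *yap1* mutant (1 gene in all), 1 with overexpression (26 in all), and 0 higher and 1 lower in the direct comparison (41 in all). *HSP10* was the named gene whose call this ended, in the *yap1* mutant (1.09, edgeR adjusted p = 0.153) and in the direct comparison (0.95, edgeR adjusted p = 0.0788).

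With 2 libraries per group, the caffeine comparison rests on a spread shared over genes, and where 1 library was left out the lone library was assumed to vary like the other group. Depth limits *HSP32* and *HSP33*, with at most 32 counts in a library. Chaperone proteins were not measured.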

Other observations

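Untreated WT without plasmid and WT with vector, whose labels name no caffeine, differed in their chaperone counts. The stress-inducible genes took 0.132% and 0.196% of the counts outside the rRNA rows in untreated WT without plasmid, and 0.500%, 0.837% and 0.610% in WT with vector. The translation-linked genes took 0.594% and 0.509% without plasmid and 0.426%, 0.447% and 0.396% with vector. *HSP82* gave 16.3% to 20.2% of the Hsp90 counts without plasmid and 32.7% to 47.6% with vector, while *SSA4* gave 70.0% to 73.6% and 73.4% to 75.4% of the counts of *SSA3* and *SSA4*. The plasmid, the growth medium and the set of libraries cannot be told apart here, and no test was made.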
